A study of Mus musculus with 6 samples.

Results

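The genes flanking Asxl2 on mouse chromosome 12 were followed in blood stem and progenitor cells that had lost this gene. They were taken as every gene symbol whose longest transcript lay on chromosome 12 (mm10) and began before position 13506849, which is 10 Mb past the end of Asxl2 at 3506849. Asxl2 itself, Dnmt3a and Mycn were left out. Apart from these exclusions by name and of 1 symbol placed on several chromosomes, the rule used only positions. It gave 58 of 24063 genes, of which 4 began before Asxl2 and 54 after it. The sides are uneven because Asxl2 begins at position 3426857, close to the end of the chromosome that holds the centromere.

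RNA was sequenced from LSK cells, the lineage-negative, Sca-1-positive and c-Kit-positive fraction of bone marrow that holds blood stem cells and early progenitors. The mice were of the C57BL/6 strain, and 3 libraries came from Asxl2-/- animals and 3 from wild-type controls. The knockout animals were Mx1-cre Asxl2 fl/fl, with LoxP sites around exon 11 of Asxl2 in an allele made in C57BL/6 embryonic stem cells, from which the selection cassette had been removed. The controls carried Mx1-cre as well, and all animals had received pIpC, a synthetic RNA that sets off interferon signalling. Interferon switches on the Mx1 promoter and so the recombinase, in blood cells and in other tissues that respond to it. The details of the allele come from the methods of the study. The ages of the animals are not given in the labels.

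Asxl2 encodes a nuclear scaffold protein of the additional sex combs-like family, which binds the deubiquitinase BAP1 and acts on chromatin. A floxed allele changes a stretch of DNA inside a chromosome that also carries other genes, and neighbours share that chromosome, its replication timing and often its regulatory contacts. The neighbours of Asxl2 have otherwise unrelated roles. They include a motor subunit (Kif3c), small GTPases (Rab10, Rhob), a hormone precursor (Pomc), an adenylyl cyclase (Adcy3), a nuclear receptor coactivator (Ncoa1), a transporter of sphingosine-1-phosphate (Mfsd2b), a cell-surface proteoglycan (Sdc1) and parts of the DNA repair machinery (Smc6, Gen1).

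Promoter sequences of the flanking genes show how closely some of them are placed. RefSeq promoter windows of 300 bases on GRCm38.p6, the assembly that mm10 names, were found for 47 of the 58 genes. In 4 places on this stretch, the starts of genes on opposite strands lay less than 1000 bp apart. One of them joins Asxl2 itself to 1110002L01Rik, a non-coding transcript, with starts 110 bp apart, and another joins Gen1, a Holliday junction resolvase, to Smc6, the core of a DNA repair complex, with starts 79 bp apart. The window of 1110002L01Rik (chr12:3426698-3426997, minus strand) is shown because the start of Asxl2 lies inside it, at base 141. The window of Gen1 (chr12:11265758-11266057, minus strand) holds the start of Smc6 at base 172. Both windows of Adcy3 are shown because it was the flanking gene that passed the test described later: the first lies at chr12:4133147-4133446 and the second at chr12:4133903-4134202, both on the plus strand. The window of Kif3c (chr12:3364882-3365181, plus strand), the nearest coding neighbour before Asxl2, completes the set. Each is written 5′ to 3′, and capitals mark TGTGGT (the core of the RUNX motif), CCGGAAG (an ETS motif) or CACGTG (an E-box), searched on both strands.
1110002L01Rik: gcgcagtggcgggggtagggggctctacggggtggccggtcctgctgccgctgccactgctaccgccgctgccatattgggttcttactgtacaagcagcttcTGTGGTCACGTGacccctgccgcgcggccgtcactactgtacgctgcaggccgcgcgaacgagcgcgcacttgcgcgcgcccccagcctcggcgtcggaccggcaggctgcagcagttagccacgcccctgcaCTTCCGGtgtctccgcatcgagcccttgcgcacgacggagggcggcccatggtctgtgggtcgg
Kif3c: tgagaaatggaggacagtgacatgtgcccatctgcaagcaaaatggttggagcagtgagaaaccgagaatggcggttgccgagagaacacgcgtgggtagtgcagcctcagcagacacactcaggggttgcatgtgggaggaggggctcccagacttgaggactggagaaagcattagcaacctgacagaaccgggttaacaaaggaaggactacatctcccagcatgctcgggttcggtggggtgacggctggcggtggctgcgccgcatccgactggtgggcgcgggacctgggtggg
Adcy3 first window: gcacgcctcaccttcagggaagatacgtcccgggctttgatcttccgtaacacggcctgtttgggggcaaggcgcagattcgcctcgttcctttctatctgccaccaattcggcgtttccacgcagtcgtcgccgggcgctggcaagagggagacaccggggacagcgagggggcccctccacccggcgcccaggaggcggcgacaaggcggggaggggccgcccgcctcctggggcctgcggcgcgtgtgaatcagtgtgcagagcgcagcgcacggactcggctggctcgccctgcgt
Adcy3 second window: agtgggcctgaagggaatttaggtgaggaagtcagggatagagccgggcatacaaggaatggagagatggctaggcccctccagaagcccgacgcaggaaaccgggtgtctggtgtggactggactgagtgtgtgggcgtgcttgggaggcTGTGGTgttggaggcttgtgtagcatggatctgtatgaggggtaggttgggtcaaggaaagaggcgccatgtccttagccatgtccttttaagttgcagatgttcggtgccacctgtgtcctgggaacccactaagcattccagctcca
Gen1: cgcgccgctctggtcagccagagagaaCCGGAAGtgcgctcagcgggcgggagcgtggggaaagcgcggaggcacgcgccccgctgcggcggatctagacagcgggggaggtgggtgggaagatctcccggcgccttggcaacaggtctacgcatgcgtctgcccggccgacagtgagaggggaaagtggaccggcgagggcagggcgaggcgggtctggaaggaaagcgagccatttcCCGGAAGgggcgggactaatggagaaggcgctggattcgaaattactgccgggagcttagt
In the window shared by 1110002L01Rik and Asxl2, the RUNX motif at base 104 was followed directly by the E-box at base 110, and an ETS motif lay on the other strand at base 237. Gen1 and Smc6 shared a window with ETS motifs at bases 28 and 240. The first window of Adcy3 held none of the motifs and 33 CpG pairs, whereas the second held a RUNX motif at base 152 and 7 CpG pairs. The Kif3c window held none of the motifs and 15 CpG pairs. Over all 57 windows of the flanking genes, the RUNX motif was present in 10.5%, the ETS motif in 14.0% and the E-box in 3.51%, against 16.8%, 8.86% and 7.15% of 32851 windows genome-wide. These are matches of letters, and no binding was measured here.

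The flanking genes took between 0.223% and 0.271% of the counts of each library. Counts per library ranged from 25528540 to 55032075, and the larger totals belonged to 3 exon-count files (Asxl2-/- replicate 2 and control replicates 1 and 3), in which counts were given per exon and a spliced read can be counted in more than 1 exon. The other 3 were gene-count files, with 1 count per transcript. Values are therefore given here by kind of file, as CPM, in which each count is scaled to the normalised size of its library, and every fold change comes from a fit with the kind of file as a covariate. Exon 11 of Asxl2, which the recombinase removes, held 28 of 4804 Asxl2 counts in Asxl2-/- replicate 2, 457 of 4433 in control replicate 1 and 492 of 4105 in control replicate 3. The total Asxl2 count was kept, with a log2 fold change of 0.11 (edgeR adjusted p = 0.469). Markers of LSK cells were present in every library, with a summed level of 1550 to 1990 CPM in Asxl2-/- and 1340 to 1590 CPM in control libraries. Of these 11 markers, 1 was raised, Slamf1 (log2 fold change 1.525, edgeR adjusted p = 0.0196), and 0 were lowered. The median log2 fold change of the list was 0.43. Ly6a, the Sca-1 gene, gave -1.34 with overlapping groups (edgeR adjusted p = 0.187), and Meis1 gave 1.12 (edgeR adjusted p = 0.0818). The summed level of 8 B-lymphoid markers was 158 to 197 CPM in Asxl2-/- and 40.9 to 59.4 CPM in controls, with 7 raised, and that of 6 megakaryocyte markers was 311 to 816 CPM against 156 to 349 CPM, with 4 raised. Of 6 neutrophil markers, 2 granule genes were raised, Ltf (log2 fold change 3.52, edgeR adjusted p = 0.0405) and Ngp (3.62, edgeR adjusted p = 0.0444), and the median log2 fold change of the list was 2.26, although its sum overlapped at 1930 to 5290 CPM against 2030 to 6220 CPM because Mpo made up most of it. In the same libraries, 6 erythroid markers summed to 144 to 220 CPM in Asxl2-/- and 296 to 473 CPM in controls, with none past the test. Xist, the RNA that silences an X chromosome in female cells, was between 1071 and 2351 CPM in all Asxl2-/- libraries and at most 61.29 CPM in all controls, and 4 Y-linked genes were lowered, so genotype and sex cannot be told apart in any comparison that follows.

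LSK cells used the flanking genes unevenly. After a filter on low counts, 39 of the 58 genes (67.2%) could be tested, against 58.8% of all genes. Compared per kilobase of transcript in the controls, the levels ran from 136 CPM per kb for Ddx1, an RNA helicase, to 0.19 CPM per kb for Gm6682. Behind Ddx1 came Sf3b6, a splicing factor of the U2 particle, at 112, Laptm4a, a lysosomal membrane protein, at 70.4, Mfsd2b at 63.4 and Pum2, an RNA-binding repressor of translation, at 59.1 CPM per kb. The 3 control values of Ddx1 overlapped those of Sf3b6, and those of Mfsd2b overlapped those of both Laptm4a and Pum2. Within each library, Laptm4a was above Mfsd2b (73.63, 66.37 and 71.24 against 71.67, 47.8 and 70.7 in control replicates 1 to 3). Differences between genes were not tested. The ranked levels are means over both kinds of file, and the order depends on the kind. In the gene-count control Sf3b6 (101.9) was above Ddx1 (97.24) and Rab10 (52.44) above Mfsd2b (47.8). The exon-count controls gave 140.3 and 171.6 CPM per kb for Ddx1 and 107.8 and 127.2 for Sf3b6. Between 10 and 50 CPM per kb lay 12 genes, among them Rab10, a GTPase of vesicle traffic, at 49, and Smc6 at 35.1. Another 14 lay between 1 and 10, including Adcy3 at 2.78, Kif3c at 1.98 and Sdc1 at 1.17 CPM per kb, and 8 lay below 1. The median of the 39 genes was 6.62 CPM per kb, and that of all 14145 tested genes 9.31 CPM per kb.

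**Figure D1:**
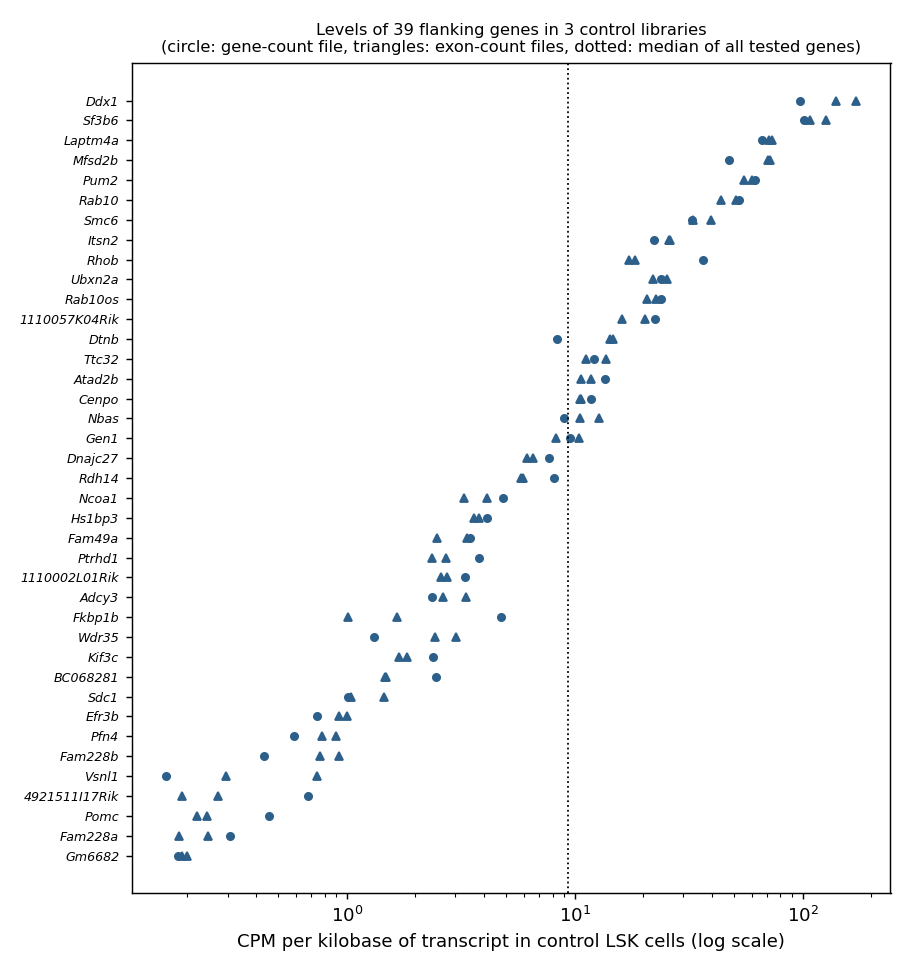
Level of the 39 tested flanking genes in the 3 control libraries, in CPM per kilobase of transcript on a log scale, with a circle for the gene-count file, triangles for the exon-count files and a dotted line at the median of all tested genes (9.31). The genes spread from 0.19 for Gm6682 to 136 for Ddx1, and Adcy3 sits in the lower part at 2.78.

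The remaining 19 flanking genes did not reach the filter. No count was seen in any library for 11 of them, which include Matn3 (a cartilage matrix protein), Osr1 and Msgn1 (transcription factors of mesoderm), Rad51ap2 and Slc7a15. A count of 0 in the smallest library allows up to 3 counts of 25528540. The highest count was between 1 and 9 for 6 more, among them Gdf7, a growth factor, Kcns3, a potassium channel subunit, and Dnmt3aos. The other 2 had 10 or more counts in some library. Klhl29 had 11, 0 and 3 counts in Asxl2-/- replicates 1 to 3 and 12, 0 and 4 counts in control replicates 1 to 3. Apob, the carrier protein of plasma lipoproteins, had 10 counts in control replicate 1 and at most 1 in every other library. Their levels are too low for a comparison between the groups at this depth.

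In the comparison of Asxl2-/- with control cells, 1 of the 39 tested flanking genes passed the threshold, and it was raised. This was Adcy3, and the share of 2.56% compares with a background of 2.34% of all 14145 tested genes (331 called by edgeR's quasi-likelihood test at an adjusted p under 0.05). Raised genes made up 2.04% of all tested genes and lowered genes 0.304%, and no flanking gene was lowered. DESeq2, which called 17.1% of all genes (8.69% raised and 8.44% lowered), called 4 of 38 flanking genes, all raised (Adcy3, Fam49a, Kif3c and Sdc1). At an unadjusted p under 0.05, 7 flanking genes were higher and none lower, a share of 17.9% against 27.7% of all tested genes (15% higher and 12.6% lower). Their median log2 fold change was 0.10, beside 0.00 over all tested genes, with quartiles at -0.07 and 0.38 and a range from -0.28 to 1.32. The fold change was above 0 for 26 of them (66.7%, background 50.1%). The median absolute log2 fold change was 0.16, smaller than the 0.24 of all tested genes, and 2 flanking genes, Adcy3 and Sdc1, had an absolute value of at least 1, against 10.1% of all tested genes. After the effect of file kind was removed, Asxl2-/- and control values did not overlap for 15 genes that were higher and 3 that were lower in Asxl2-/- cells, which is 46.2% of the flanking genes. Over all tested genes the groups did not overlap for 44.4%, with 23.6% higher and 20.8% lower. A lower count of a transcript in such bulk samples can come from fewer cells of a type or from less RNA per cell, and these cannot be told apart.

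**Figure D2:**
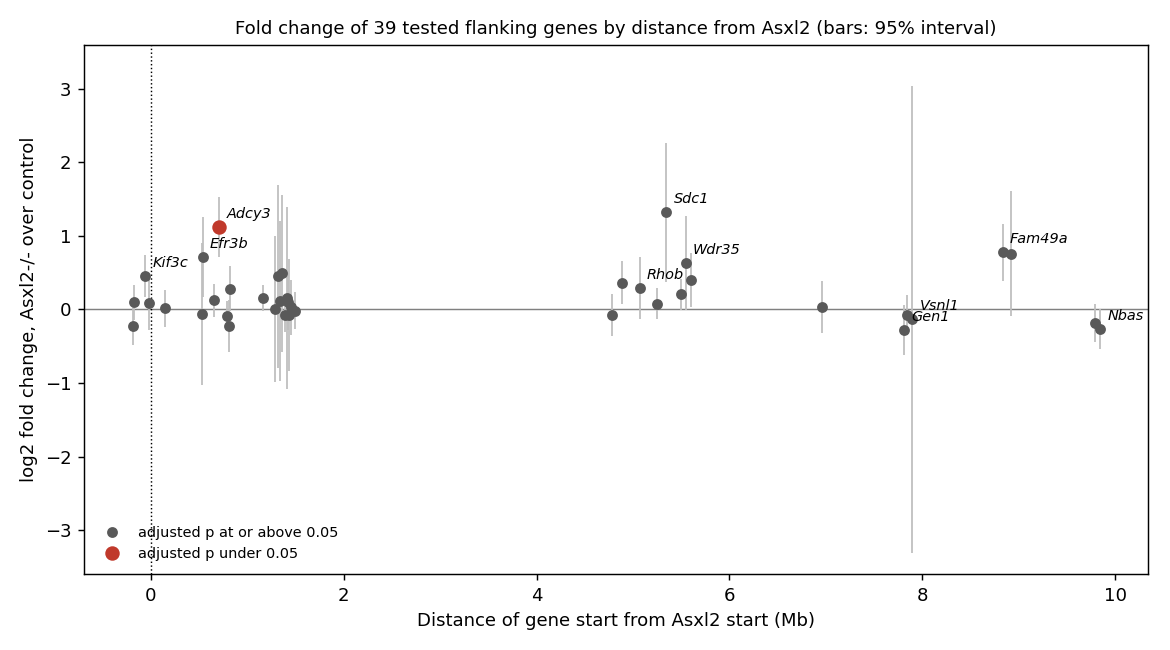
Log2 fold change of each tested flanking gene (Asxl2-/- over control, with bars for the 95% interval) against the distance of its start from the start of Asxl2 in Mb, with the gene past the threshold in red. Adcy3, 0.707 Mb after Asxl2, is the red point, Sdc1 and Fam49a stand high at 5.34 and 8.84 Mb, and of the genes nearest to the dotted line at Asxl2, Kif3c lies at 0.46 and 1110002L01Rik at 0.08.

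The fold changes showed little relation to the distance from Asxl2. Of 13 genes that began within 1 Mb, 12 were tested and 1 was called (Adcy3), with a median log2 fold change of 0.09. None of the 13 tested genes among 18 at 1 to 5 Mb was called (median 0.10), and none of the 14 tested genes among 27 further away (median 0.14). The median absolute change was 0.17, 0.10 and 0.27 in these bands. Across the 39 genes, the distance and the log2 fold change had a Pearson correlation of 0.02 and a Spearman correlation of -0.06, and for the absolute change these were 0.20 and 0.16. All points come from the same 6 libraries and neighbouring genes can share reads, so these are descriptions only. Between 2810032G03Rik, 1.95 Mb after Asxl2, and Apob, 4.55 Mb after it, a single flanking gene began, the transcript 1700101O22Rik, which had no count. Mycn, left out by name and 9.51 Mb after Asxl2, had a log2 fold change of 1.46 (edgeR adjusted p = 0.0647), above that of every tested flanking gene. Dnmt3a, also left out, gave 0.12 (edgeR adjusted p = 0.365).

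The nearest neighbours on the side before Asxl2 were Rab10os, Rab10, Kif3c and 1110002L01Rik, and none passed the threshold. Kif3c, a subunit of the kinesin-2 motor that moves cargo along microtubules, begins at 3365132 (8 exons, chr12:3365132-3406494). Kif3c was at 24.45 and 21.68 CPM in Asxl2-/- replicates 1 and 3 against 16.43 CPM in control replicate 2, and at 16.2 CPM in Asxl2-/- replicate 2 against 12.63 and 11.58 CPM in control replicates 1 and 3. Within each kind of file the Asxl2-/- values lay above the controls, and the log2 fold change was 0.46 ± 0.12 (SE, n = 3 against 3, 95% interval 0.17 to 0.74, edgeR adjusted p = 0.0875). 1110002L01Rik, whose start faces that of Asxl2, gave 13.45 and 12.13 CPM in Asxl2-/- replicates 1 and 3, 10.87 in control replicate 2, 8.456 in Asxl2-/- replicate 2, and 8.596 and 9.111 in control replicates 1 and 3. Its groups overlapped, with a log2 fold change of 0.08 (95% interval -0.28 to 0.44, edgeR adjusted p = 0.749). Without control replicate 2 the sign of this value turned, to -0.06.

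These neighbours share exonic sequence on opposite strands, and the libraries were unstranded, so reads there cannot be told apart. The last exon of Kif3c by coordinate covers 2612 bp that also belong to 1110002L01Rik, which is 38.1% of the Kif3c transcript and 79.2% of 1110002L01Rik. In the 3 exon-count libraries, the 7 Kif3c exons without overlap summed to 7.26 CPM in Asxl2-/- replicate 2 and to 5.14 and 3.4 CPM in control replicates 1 and 3, a log2 ratio of 0.77, while the shared exon had a ratio of 0.19. The other 2 exons of 1110002L01Rik gave 69 counts in Asxl2-/- replicate 2 against 107 and 76 in the controls, or 1.3 CPM against 2.05 and 1.6 CPM (log2 ratio -0.49). Outside the shared bases the Asxl2-/- library thus lay above both controls for Kif3c and below both for 1110002L01Rik. With 1 Asxl2-/- library in this kind of file, these ratios carry no test.

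Rab10 and its antisense transcript Rab10os, which begin 0.179 and 0.191 Mb before Asxl2, had 15 bp in common. Rab10 was at 192.7 and 210.8 CPM in the Asxl2-/- gene-count files against 184.2 CPM, and at 173.1 CPM in the Asxl2-/- exon-count file against 153.3 and 178.6 CPM. The groups of Rab10 overlapped, with a log2 fold change of 0.10 (95% interval -0.14 to 0.33, edgeR adjusted p = 0.554). Rab10os lay below the controls in each kind of file, at 19.87 and 22.32 CPM against 25.74, and at 21.06 against 22.35 and 24.53, with a log2 fold change of -0.22 (95% interval -0.49 to 0.05, edgeR adjusted p = 0.243).

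On the other side, the nearest tested genes were Dtnb, Pomc, Efr3b and Dnajc27. Dtnb, which encodes dystrobrevin beta of the dystrophin-associated complex, was at 23.1 and 20.69 CPM against 20.53 among gene-count files and at 34.29 CPM against 36.3 and 35.1 among exon-count files. Its log2 fold change was 0.02 (95% interval -0.23 to 0.27, edgeR adjusted p = 0.938), its sign turned with median-ratio scaling, and of its 21 exons 8 lay above and 10 below both controls. Pomc, the precursor of melanocortins and beta-endorphin, had 12 to 16 counts in every library, and its log2 fold change of -0.06, whose sign turned with scaling by library size only, had a wide interval of -1.03 to 0.90 at this depth. In the exon-count libraries all Pomc counts fell in exon 4, with 0 in exons 1, 2 and 3. Dnajc27, a Rab-like GTPase with a J domain, did not overlap between groups, at 40.24 and 42.52 CPM against 36.47 and at 31.55 CPM against 31.03 and 29.27, but the log2 fold change was small, 0.12 (95% interval -0.10 to 0.35, edgeR adjusted p = 0.412), and 0.07 without Asxl2-/- replicate 3 or control replicate 2.

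Efr3b, a plasma-membrane protein that anchors a phosphatidylinositol 4-kinase, begins 0.536 Mb after Asxl2. It gave 9.013 and 11.25 CPM in Asxl2-/- replicates 1 and 3 against 4.863 CPM in control replicate 2, and 8.155 CPM in Asxl2-/- replicate 2 against 6.543 and 6.032 CPM in control replicates 1 and 3. The groups did not overlap, and the log2 fold change was 0.71 ± 0.22 (SE, n = 3 against 3, edgeR adjusted p = 0.117). It fell to 0.38 without control replicate 2, which had the lowest of the 6 values, and rose to 1.06 without Asxl2-/- replicate 2. With gene-count files alone it was 1.04 and with exon-count files alone 0.37. Of the 23 Efr3b exons, 12 lay above both controls in Asxl2-/- replicate 2 and 4 lay below both. Exons 16 to 23 by coordinate held at most 2 counts in any of these libraries. Efr3b lies on the minus strand with its start at 4038915, so these are the first exons of the transcript. Nearly all Efr3b counts in these libraries thus came from its 3′ part, and the annotated full-length transcript was hardly seen. Exons 18, 20 and 21 are among the 12 with only 1 count against 0 and 0. The median log2 ratio of 0.50 covers exons 1 to 15, which had enough counts for a ratio.

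Adcy3 rose in Asxl2-/- cells. It encodes an adenylyl cyclase, an enzyme that makes the second messenger cyclic AMP at the membrane, and lies at chr12:4133397-4213524 with 22 exons (NM_001159537). The CPM of Adcy3 was 28.56 and 21.68 in Asxl2-/- replicates 1 and 3 against 11.18 in control replicate 2, and 29.75 in Asxl2-/- replicate 2 against 15.77 and 12.44 in control replicates 1 and 3. On the CPM scale every Asxl2-/- library was above every control. The counts behind these values were 805, 1583 and 615 in Asxl2-/- replicates 1 to 3 and 822, 322 and 590 in control replicates 1 to 3, and they overlap because the libraries differ in size and kind of file. With the file kind removed, the mean log2 CPM was 4.77 ± 0.20 (SD, n = 3) in Asxl2-/- and 3.66 ± 0.17 (SD, n = 3) in control cells. The log2 fold change was 1.12 ± 0.17 (SE, 95% interval 0.72 to 1.52), a 2.17-fold higher level, with an edgeR adjusted p of 0.0336. Within the gene-count files alone it was 1.15 and within the exon-count files alone 1.08. Leaving out 1 library at a time kept the log2 fold change between 1.015 and 1.206, but the adjusted p was 0.116, 0.0549 and 0.0601 without Asxl2-/- replicate 1, 2 or 3, 0.113 without control replicate 2 and 0.14 without control replicate 3, and the call held only without control replicate 1 (0.0381). The sum of the B-lymphoid markers and the neutrophil markers Ltf and Ngp given above were likewise higher in every Asxl2-/- library than in every control, and 4 megakaryocyte markers were raised. The neutrophil list as a whole did not go 1 way. Mpo (log2 fold change -0.21), Elane (-0.29) and S100a8 (1.49) overlapped between the groups. The part of any of these markers in the Adcy3 value was not tested.

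Along the Adcy3 transcript the difference was seen in every exon, in a comparison of 1 Asxl2-/- with 2 control libraries that carries no test. In these exon-count libraries, all 22 exons were higher in Asxl2-/- replicate 2 than in both controls, with log2 ratios from 0.48 to 1.83 and a median of 1.11. The first exon had the highest ratio, 1.83, from 61 counts against 16 and 16. Exon 2 had a ratio of 1.55, from 156 counts against 58 and 42. Its start at 4134153 is also the transcript start that lies inside the second RefSeq promoter window. The lowest ratios, 0.80 and 0.48, belonged to exons 21 and 22, where 1045 bp (22.1% of the transcript) also belong to Cenpo, a centromere protein gene on the opposite strand. Without them, the other 20 exons summed to 25.2 CPM in Asxl2-/- replicate 2 and to 12.5 and 9.45 CPM in the controls, a log2 ratio of 1.20. Cenpo itself was slightly below the controls in each kind of file, with a log2 fold change of -0.09 (edgeR adjusted p = 0.51), and 29.9% of its exonic bases were shared with Adcy3 or Ptrhd1.

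Fam49a came next by p-value. It encodes a protein that binds the GTPase Rac1 and restrains actin remodelling, and lies 8.84 Mb after Asxl2 (chr12:12262139-12376361). Fam49a was at 33.11 and 28.63 CPM in Asxl2-/- replicates 1 and 3 against 16.85 CPM in control replicate 2, and at 22.74 CPM in Asxl2-/- replicate 2 against 16.29 and 12.11 CPM in control replicates 1 and 3. The groups did not overlap, and the log2 fold change was 0.78 ± 0.16 (SE, n = 3 against 3, 95% interval 0.39 to 1.16), but the edgeR adjusted p was 0.0643. In the exon-count libraries 12 of its 13 exons lay above both controls. It shares 84 bp with 4921511I17Rik, an overlapping non-coding transcript, whose log2 fold change was 0.76 (edgeR adjusted p = 0.218). Without control replicate 1 the log2 fold change was 0.89 and passed the threshold.

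Sdc1 had the largest fold change of the 39 genes and did not pass. It encodes syndecan-1, a heparan sulfate proteoglycan of epithelial cells that is also a surface marker of plasma cells, at chr12:8771396-8793687. Sdc1 was at 14.51 and 7.262 CPM in Asxl2-/- replicates 1 and 3 against 3.091 CPM in control replicate 2, and at 6.952 CPM in Asxl2-/- replicate 2 against 4.471 and 3.206 CPM in control replicates 1 and 3. No control reached an Asxl2-/- value, but Asxl2-/- replicate 1 stood well above replicate 3, and the log2 fold change was 1.32 ± 0.39 (SE, n = 3 against 3, 95% interval 0.38 to 2.27, edgeR adjusted p = 0.106). Without control replicate 2 it was 0.86. All 5 exons of Sdc1 were above both controls in Asxl2-/- replicate 2. The plasma-cell markers Sdc1, Xbp1 and Prdm1 together summed to 80.3 to 117 CPM in Asxl2-/- and 81.7 to 132 CPM in control libraries, and none of the 3 passed the test. Xbp1, at 72.52 to 128.1 CPM over all libraries, made up most of this sum. Xbp1 (log2 fold change -0.165) and Prdm1 (0.034) overlapped between the groups. Of the 8 B-lymphoid markers given above, 7 were raised. The part of either list in the Sdc1 value was not tested.

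**Figure D3:**
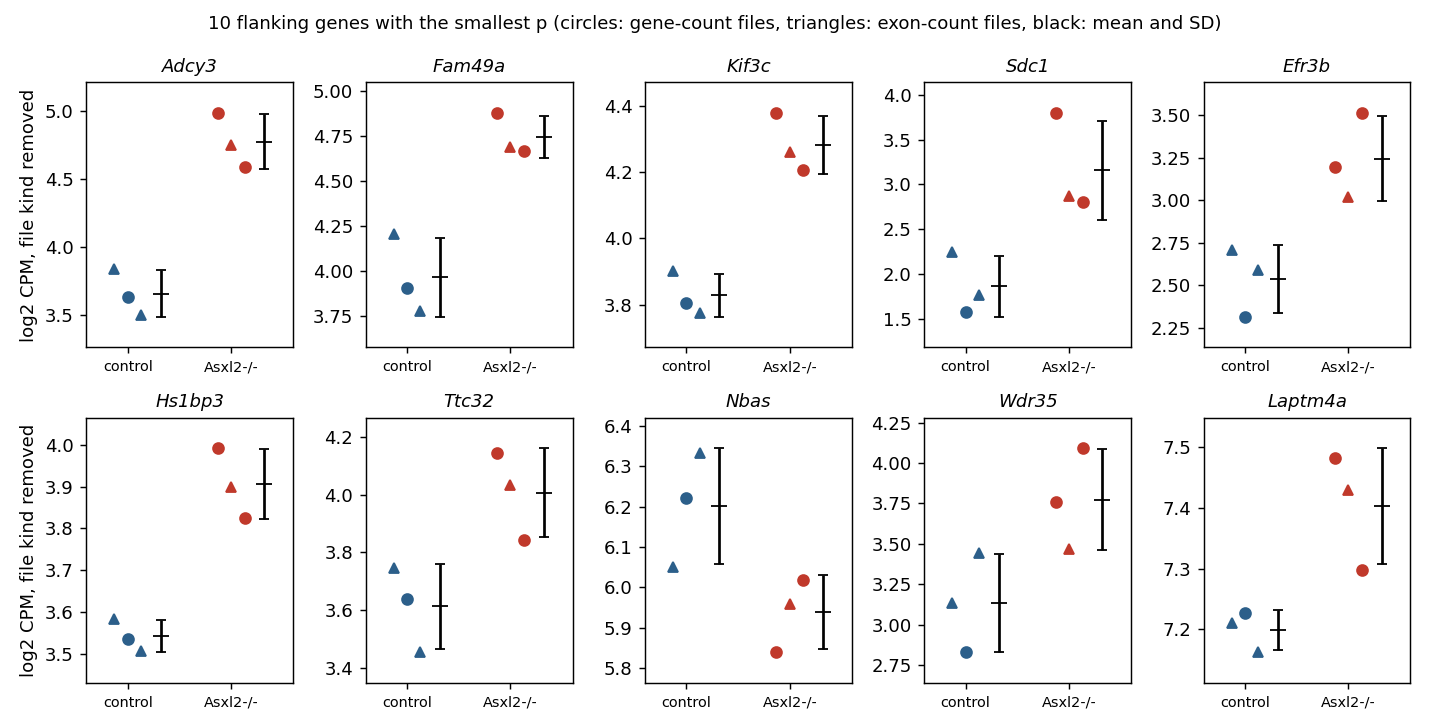
Log2 CPM of the 10 flanking genes with the smallest p-values in each library after the effect of file kind was removed, with circles for gene-count files, triangles for exon-count files and black bars for the mean and SD of each group of 3. The groups are separate in every panel, and Nbas is the only one of the 10 that is lower in Asxl2-/- cells. Adcy3 alone passed the threshold.

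The other genes among the 10 smallest p-values had small differences. Hs1bp3, a binding partner of the cortactin-like protein HCLS1, had a log2 fold change of 0.37 (95% interval 0.07 to 0.66, edgeR adjusted p = 0.129), from 16.78 and 14.95 CPM against 12.23 and from 14.06 CPM against 11.28 and 10.69. Ttc32, a protein with tetratricopeptide repeats, gave 17.25 and 13.96 CPM against 12.12 and 16.72 CPM against 13.66 and 11.16, a log2 fold change of 0.40 (edgeR adjusted p = 0.16). Laptm4a, abundant in these cells, gave 168.7 and 148.5 CPM against 141.3 and 182.6 CPM against 156.8 and 151.7, a log2 fold change of 0.21 (edgeR adjusted p = 0.191). In all 3 genes each Asxl2-/- value lay above the controls of the same kind of file. Wdr35, a component of intraflagellar transport, had 11 and 13.89 CPM against 5.766 among gene-count files and 13.47 CPM against 10.67 and 13.22 among exon-count files. Its log2 fold change was 0.63 (edgeR adjusted p = 0.187), but 1.09 with gene-count files alone and 0.18 with exon-count files alone, and it was 0.18 without control replicate 2 and 1.11 without Asxl2-/- replicate 2.

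Nbas, a factor of transport from the Golgi to the endoplasmic reticulum, lies 9.84 Mb after Asxl2 and was the only gene of these 10 that was lower. It gave 49.64 and 56.19 CPM in Asxl2-/- replicates 1 and 3 against 64.74 CPM in control replicate 2, and 71.67 CPM in Asxl2-/- replicate 2 against 76.27 and 92.84 CPM in control replicates 1 and 3. The log2 fold change was -0.26 ± 0.11 (SE, n = 3 against 3, 95% interval -0.53 to 0.01, edgeR adjusted p = 0.186). Rab10os and Cenpo were the other 2 flanking genes whose groups did not overlap with Asxl2-/- cells lower.

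Of the 5 most abundant flanking genes, all but Laptm4a overlapped between the groups. Ddx1 gave 201.0 and 214.1 CPM against 240.1 and 343.7 CPM against 346.4 and 423.8, a log2 fold change of -0.19 (95% interval -0.45 to 0.07, edgeR adjusted p = 0.294). Pum2 gave 420.3 and 432.3 CPM against 389.8 and 371.5 CPM against 350.4 and 377.0, a log2 fold change of 0.08 (95% interval -0.13 to 0.29, edgeR adjusted p = 0.566). Sf3b6 had a log2 fold change of -0.08 with an interval of -0.31 to 0.16, and its sign turned with scaling by library size only. Mfsd2b, which exports sphingosine-1-phosphate from red cells and platelets, varied more: Asxl2-/- replicate 1 was at 121.4 CPM and Asxl2-/- replicate 3 at 245.3 CPM, on either side of control replicate 2 at 149.4 CPM. Its log2 fold change was -0.08 with an interval of -0.84 to 0.68, and the sign turned with scaling by library size only (0.02) and without Asxl2-/- replicate 1 (0.05) or 2 (0.30).

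By role, the flanking genes of vesicle traffic, motors and cytoskeleton leaned to one side most often. All 13 were tested, 12 had a fold change above 0 with a median log2 fold change of 0.21, and the exception was Nbas. None passed the adjusted threshold, and 4 (Kif3c, Fam49a, Efr3b and Hs1bp3) had an unadjusted p under 0.05, all higher, which is 30.8% of the group against 27.7% of all tested genes. The groups were assigned with earlier results of these data known, so this lean is a description. Of the 5 genes put under DNA repair and chromosomes, 4 were tested and 1 was above 0, with a median of -0.08. The gene above 0 was BC068281 (0.10), whose place in this group is uncertain, and Gen1, Smc6 and Cenpo were below 0. Gen1 gave 24.8 and 29.19 CPM against 31.3 and 24.07 CPM against 27.13 and 34.27, with a log2 fold change of -0.28 (edgeR adjusted p = 0.236), and Smc6 gave -0.07 (edgeR adjusted p = 0.71), and the groups overlapped for both genes of this shared start region. Of 7 genes of transcription and RNA, 5 were tested with a median of -0.02, and Ncoa1 at 0.28 (edgeR adjusted p = 0.199) was the highest. Of 7 genes of signalling, receptors and channels, 5 were tested, and Adcy3 was the gene called. The 9 genes of lipid handling, metabolism, transport and matrix had 5 tested members, a median of -0.07 and no call, and the 17 other or uncharacterised genes had 7 tested members, a median of 0.40 and no call.

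The direction of change depended on the kind of file for part of the flanking genes. The sign of the log2 fold change was the same in both kinds of file taken alone for 26 of 39 (66.7%), beside 68.1% of all tested genes. The largest disagreement was that of Vsnl1, a neuronal calcium sensor with few counts here, at 1.96 with gene-count files and -2.01 with exon-count files, and its interval in the joint fit ran from -3.31 to 3.04. Fkbp1b, an immunophilin of calcium release channels, gave -0.93 and 1.23, and Fam228b gave 1.37 and -0.44. These 3 were low in LSK cells. Adcy3, Fam49a, Kif3c, Sdc1 and Efr3b were above 0 in both kinds of file.

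**Figure D4:**
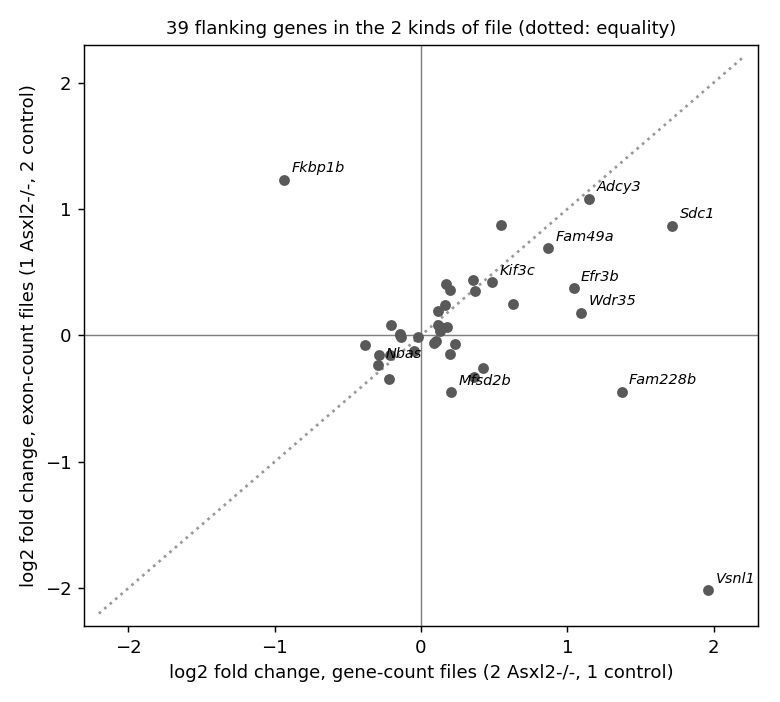
Log2 fold change of the 39 tested flanking genes from gene-count files alone (horizontal, 2 Asxl2-/- and 1 control library) and from exon-count files alone (vertical, 1 Asxl2-/- and 2 control libraries), with a dotted line at equality. Adcy3 lies near the line at 1.15 and 1.08, while Vsnl1, Fkbp1b and Fam228b fall in the quadrants of opposite sign.

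Set beside other stretches of the genome, the flanking genes were called about as often as elsewhere. The rest of chromosome 12 had 429 tested genes, of which 7 were raised and 1 lowered (1.86%), with a median log2 fold change of -0.02 and a median absolute change of 0.22. The genes within 10 Mb of Asxl1, the paralog of Asxl2 on chromosome 2, which was not deleted in these mice, had 159 tested members, of which 4 were raised and none lowered (2.52%), with a median of 0.01 and a median absolute change of 0.21. The flanking genes of Asxl2, at 2.56%, lay near the background of 2.34%, and no difference between these stretches was tested.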

How the data were processed

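RNA of LSK cells was sequenced from 3 Asxl2-/- and 3 control mice, with the replicate numbers given in the titles. Per the study's methods these are biological replicates, and libraries were poly(A)-selected and unstranded. The deposited values were raw counts per RefSeq transcript (Asxl2-/- replicates 1 and 3, control replicate 2) or per exon (the other 3), not pooled, on mm10, and the submitters' processing notes name STAR, featureCounts and DESeq2 without versions. Each symbol was represented by its longest transcript, with exon counts summed. Library totals ranged from 25528540 to 55032075.

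All genes were fitted together with edgeR 4.0.16 in R 4.3.3 (quasi-likelihood test, TMM, filterByExpr, file kind plus group, 3 residual degrees of freedom), with two-sided p-values adjusted by Benjamini and Hochberg and a threshold of 0.05. Displayed CPM use the TMM-scaled library size, and adjusted log2 CPM add a prior count of 2, and SDs after removal of the file kind are somewhat too small. Counting error alone is covered by the floor of 3 counts. Scripts were tested on simulated data.

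Genes named were those past the threshold, the 4 nearest tested on each side, the 10 smallest p-values, the 5 highest control levels per kb and untested genes reaching 10 counts. Single values of Gm6682, Gen1, Smc6, Cenpo, Ncoa1, Vsnl1, Fkbp1b, Fam228b and 4921511I17Rik were added after their values were seen. The flanking genes, role groups, partner genes and marker lists were chosen with earlier results of these data known. Promoters came from RefSeq. Alternatives were DESeq2 1.42.0, limma-voom (limma 3.58.1), other scalings, filters and transcripts, no file-kind term, replicate blocks, narrower windows, genes outside X and Y, separate estimates from either kind of file, and leaving out 1 library at a time.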

Additional observations from a re-analysis of the deposited data

How the results depend on the processing

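The count of flanking genes past the threshold, 1 in the reported fit, was 0 with library size only, 4 with DESeq2, 12 with the replicate block and file kind (10 raised, 2 lowered, against 36.6% of all genes in that fit), 0 with the block without file kind, and 0 to 2 when 1 library was left out (2 without control replicate 1, 0 in the other 5 fits). Over all genes the count of 331 became 161, 2329 and 5179 with library size only, DESeq2 and the replicate block with file kind, and 9 to 1312 without 1 library (9 without control replicate 3, 16 without Asxl2-/- replicate 1, 1312 without control replicate 1). In the same order the rest of chromosome 12 went from 8 to 4, 50 and 138 (0 to 28 without 1 library), and the genes flanking Asxl1 from 4 to 2, 20 and 50 (0 to 10). For 23 partner genes the count of 0 became 1 without a filter, 6 with DESeq2, 2 with limma-voom, 2 without the file-kind covariate, 10 and 1 with the replicate block with and without file kind, and 0 to 3 without 1 library. Adcy3 stayed above 0 in all 18 alternatives with a test (log2 fold change 1.015 to 1.214, adjusted p 8.26e-13 to 0.14) and past the threshold in 11. The median log2 fold change over flanking genes ranged from 0.02 to 0.21.

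Among the genes named by the rule, signs turned in the fits with a test for 5. 1110002L01Rik ranged from -0.062 (without control replicate 2) to 0.234 when 1 library was left out. Dtnb gave -0.032 with median-ratio scaling, -0.034 with DESeq2, -0.005 with limma-voom, -0.235 without the file-kind covariate, -0.233 with the block without file kind and -0.055 to 0.093 without 1 library (below 0 without Asxl2-/- replicate 1 or control replicate 2). Pomc gave 0.035 with library size only, 0.177 without the file-kind covariate, 0.19 with the block without file kind and -0.218 to 0.096 without 1 library (above 0 without Asxl2-/- replicate 1 or control replicate 2). With library size only, Sf3b6 gave 0.024 and Mfsd2b 0.018, and Mfsd2b ranged from -0.444 to 0.295 without 1 library (above 0 without Asxl2-/- replicate 1 or 2). The cause of these shifts was not tested.

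Replicate numbers were not taken to pair the samples, since the labels tie them to no shared litter, batch or day. Deviations of same-numbered libraries from their group means correlated at 0.294, -0.008 and -0.003. Every same-numbered pair joins a gene-count with an exon-count file, so pairing and file kind are mixed in these correlations. They cannot show whether the samples were paired. With the file kind also removed, these correlations were 0.635, 1 and 0.388 (other pairs -0.75 to 0.173). The 1 is forced by the removal. It also gives replicates 1 and 3 of both groups a shared term, which raises their correlations and lowers those with replicate 2. Among replicates 1 and 3, the crossed pairs gave -0.052 and 0.173. Before the removal, Asxl2-/- replicate 2 correlated best with control replicate 3 (0.256) and Asxl2-/- replicate 3 with control replicate 2 (0.057). Each of these pairs shares a kind of file. These values cannot settle whether the samples were paired, so values with the replicate block stand here only. With file kind, the block gave adjusted p = 0.00239 for Kif3c, 9.07e-08 for Fam49a and 3.2e-09 for Sdc1 by edgeR. That fit has fewer residual degrees of freedom than the 3 of the reported fit and called 36.6% of all tested genes. Its p-values therefore lean more on the spread shared across genes. The block without file kind gave edgeR adjusted p = 0.305, 0.103 and 0.054 for the same genes. An arm left with 1 library in a kind of file is assumed to vary like the others. With 3 libraries a group and genes such as Pomc at 12 to 16 counts, small changes of low genes were not detectable.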

Other observations

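Partners that flanking genes work with, encoded elsewhere in the genome, were read from the same fit. None of 23 passed edgeR's adjusted threshold. At an unadjusted p under 0.05, 5 were higher and 3 lower, DESeq2 called 3 raised and 3 lowered, and limma-voom called 2 raised. Their median log2 fold change was 0.01, beside 0.00 over all tested genes. The other syndecans lay on both sides. Sdc2 was at 2.023 and 1.34 CPM in Asxl2-/- replicates 1 and 3 against 0.2779 CPM in control replicate 2, and at 2.649 CPM in Asxl2-/- replicate 2 against 0.7291 and 0.8436 CPM in control replicates 1 and 3, with a log2 fold change of 2.09 (edgeR adjusted p = 0.0506). Sdc4 gave 1.48 (edgeR adjusted p = 0.0541), and its groups did not overlap either. Sdc3 gave -1.07 (edgeR adjusted p = 0.135), with control replicate 2 at 55.4 CPM and every other library between 11.77 and 20.9 CPM.

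Of the other kinesin-2 subunits that pair with Kif3c or its relatives, Kif3a gave a log2 fold change of -0.05 and Kif3b of -0.08, with overlapping groups, and Kifap3, the cargo adaptor, gave 0.38 (edgeR adjusted p = 0.0942). For the sphingosine-1-phosphate pathway of Mfsd2b, the exporter Spns2 gave 0.69 (edgeR adjusted p = 0.113), the kinases Sphk1 and Sphk2 gave -1.775 (edgeR adjusted p = 0.103) and -0.29 (edgeR adjusted p = 0.11), and the receptor S1pr1 gave -0.11 with overlapping groups. Among members of the complex around Smc6, Smc5 gave 0.31 (edgeR adjusted p = 0.19) and Nsmce1 0.01. The groups overlapped for both.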
